A study of Mus musculus with 14 samples.

Results

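The proteasome genes of tumour T cells are described here, as measured in RNA from regulatory T cells and other CD4 T cells under PD-L1 blockade. The members were taken by name, as every mouse gene whose symbol starts with Psma, Psmb, Psmc, Psmd, Psme, Psmf or Psmg and a number, with at least 10 counts in 2 or more of the 14 libraries. Of 25124 genes in the table, 50 symbols matched and 49 met the count limit. The symbol left out was Psmb11, the thymus-specific catalytic subunit, with 0 counts in every library. Psma8, the testis form of an alpha subunit, met the limit through counts of 10 and 35 in the isotype CD4 libraries, had 3 counts in 1 treated CD4 library and none elsewhere, and was removed by the filter on low counts, so 48 members were tested. One of them, Psmc3ip, encodes a partner of the meiotic recombinases, is no proteasome subunit, and is reported apart.

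The cells came from female C57BL/6 mice, 8 to 12 weeks old, of the genotype GATIR Foxp3Cre-rfp Gata3Cre-yfp, in which a red fluorescent protein reports Foxp3. All groups carried these alleles and a subcutaneous AE17-OVA tumour, a mouse mesothelioma line. Mice received 200 µg of anti-PD-L1 (clone MIH5) or an isotype antibody (clone 2A3) into the peritoneum at day 10 of the experiment, and tumours were collected at day 13. PD-1+ Tregs (3 anti-PD-L1 and 2 isotype libraries), PD-1- Tregs (2 and 2) and CD4 T cells (3 and 2) were sorted on CD4, CD25, the reporter and PD-1, and Smart-seq2 libraries, which amplify full-length cDNA without molecular identifiers, were sequenced. The labels name the replicates biological but not the animals or pools behind each library, so a p-value measures the spread of these libraries only.

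The proteasome is the main protease of the cytosol and nucleus. Its core particle is a barrel of 2 outer rings of alpha subunits and 2 inner rings of beta subunits, 3 of which in each ring cut peptide bonds, and a cap of ATPase and non-ATPase subunits binds and unfolds ubiquitin-tagged proteins. In lymphocytes, and in other cells exposed to interferon-gamma, the catalytic subunits Psmb5, Psmb6 and Psmb7 can be replaced by Psmb8, Psmb9 and Psmb10 during assembly, which gives the immunoproteasome, and the core can be opened by the PA28 activator made of Psme1 and Psme2. The peptides it makes are a source for MHC class I presentation.

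Psmb8 lies on chromosome 17 from 34198195 to 34201454 on the plus strand, and Psmb9 from 34182030 to 34187330 on the minus strand, with 10864 bases between them (GRCm38.p6, the assembly of the mm10 build the submitters name). Both sit in the MHC class II region. Psmb9 is divergent with Tap1, a subunit of the peptide transporter, with 225 bases between their starts, so the window upstream of Psmb9 is shared by both genes. Psmb5 lies on chromosome 14 from 54614120 to 54617995, minus strand, and Psmb6 on chromosome 11 from 70525324 to 70527858, plus strand. The 250 bases before the starts of these 4 genes (217 for Psmb6) are shown, because the results below turn on how Psmb8 and Psmb9 stood against Psmb5 and Psmb6. They are from RefSeq (GRCm38.p6), 5′ to 3′ on the gene's strand, and capitals mark a motif match.
Psmb8, chr17:34197945-34198194, plus strand: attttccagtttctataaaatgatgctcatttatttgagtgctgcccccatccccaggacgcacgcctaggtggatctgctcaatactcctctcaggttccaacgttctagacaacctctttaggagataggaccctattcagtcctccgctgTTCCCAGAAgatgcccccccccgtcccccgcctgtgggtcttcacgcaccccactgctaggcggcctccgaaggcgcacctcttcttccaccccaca
Psmb9, chr17:34187331-34187580, minus strand: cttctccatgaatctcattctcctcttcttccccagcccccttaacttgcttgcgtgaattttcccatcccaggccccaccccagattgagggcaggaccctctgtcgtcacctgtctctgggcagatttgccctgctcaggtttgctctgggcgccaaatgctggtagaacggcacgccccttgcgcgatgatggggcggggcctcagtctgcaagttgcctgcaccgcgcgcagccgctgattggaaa
Psmb5, chr14:54617996-54618245, minus strand: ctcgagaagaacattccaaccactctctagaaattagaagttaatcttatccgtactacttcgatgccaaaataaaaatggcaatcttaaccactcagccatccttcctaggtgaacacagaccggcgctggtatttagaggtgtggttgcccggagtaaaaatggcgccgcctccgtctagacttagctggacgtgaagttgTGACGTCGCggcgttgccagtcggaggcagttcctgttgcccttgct
Psmb6, chr11:70525107-70525323, plus strand: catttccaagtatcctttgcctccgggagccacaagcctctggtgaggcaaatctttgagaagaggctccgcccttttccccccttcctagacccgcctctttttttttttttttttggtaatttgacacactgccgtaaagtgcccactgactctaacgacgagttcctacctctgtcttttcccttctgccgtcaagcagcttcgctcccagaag

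The capitals in Psmb8 are a match to TTCNNNGAA, the core of the gamma-activated site, 97 to 89 bases before the start. Those in Psmb5 are a match to TGACNNNGC, the core of the antioxidant response element, 47 to 39 bases before the start. Psmb6 has such a match 9 to 1 bases before the start of its curated RefSeq transcript, which is not printed because a longer RefSeq model of the gene begins upstream of it. The window of Psmb9 held neither of these, and none of the 4 windows held the pattern GAAA, any 2 bases, GAAA, a form of the interferon-stimulated response element (ISRE). Both strands were searched, and no match overlapped another in these windows. Of 42 members with a window in the table, 2 held TTCNNNGAA, against 7.02% of 32851 promoters of the same length, 5 held TGACNNNGC, against 10.2%, and 3 held the ISRE pattern, against 2.98%. A match is a match of letters and does not show that a factor bound.

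Total counts per library ran from 10638848 to 15030804, and the members together took 1.07% to 1.50% of them. Libraries were checked before use. Cd3e, a chain of the T cell receptor complex, stood between 227 and 550.0 CPM (counts per library size of 1e+06, after TMM scaling) in all 14 libraries. Cd4, on whose product the cells were sorted, was 19.7 and 100.1 CPM in isotype PD-1- Tregs and 138 to 518 in the other libraries. All treatment changes of PD-1- Tregs rest on these isotype libraries, and the part of their low Cd4 was not tested. Foxp3, the Treg-defining factor, was 31.1, 156 and 45.7 CPM in anti-PD-L1 PD-1+ Tregs and 15.9 and 94.7 in isotype PD-1+ Tregs. These overlapped CD4 T cells (16.3 to 55.0). Il2ra, another Treg marker, was 192 to 391 CPM in PD-1+ Tregs and 13.4 to 79.5 in CD4 T cells. All 6 Treg markers summed to 3090 to 5577 and 589 to 2081 CPM in the same order. In PD-1- Tregs Foxp3 was 114 to 198 CPM, Il2ra 247 to 662, and the sum of the Treg markers 3146 to 5232. Pdcd1, the gene of PD-1, was 85.6 to 246 CPM in PD-1+ Tregs and 21.7 to 46.5 in PD-1- Tregs. Summed over 12 macrophage and monocyte markers, PD-1+ Tregs held 3952 to 7770 CPM, PD-1- Tregs 335 to 967, with C1qa and Fcgr1 at 0 in all 4 libraries, and CD4 T cells 2590 to 6987. In all, 3 anti-PD-L1 libraries, 1 in each population (PD-1+ replicate 3, PD-1- replicate 2 and CD4 replicate 3), held 204 to 267 CPM of Y-linked genes although the labels give female mice, while the other 11 held at most 0.0872. All 3 carry number 3 in the bracketed part of their titles. Some results that rest on these libraries are given with and without them, and others only with them. In bulk RNA, fewer cells of a type and less RNA per cell cannot be told apart.

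**Figure D1:**
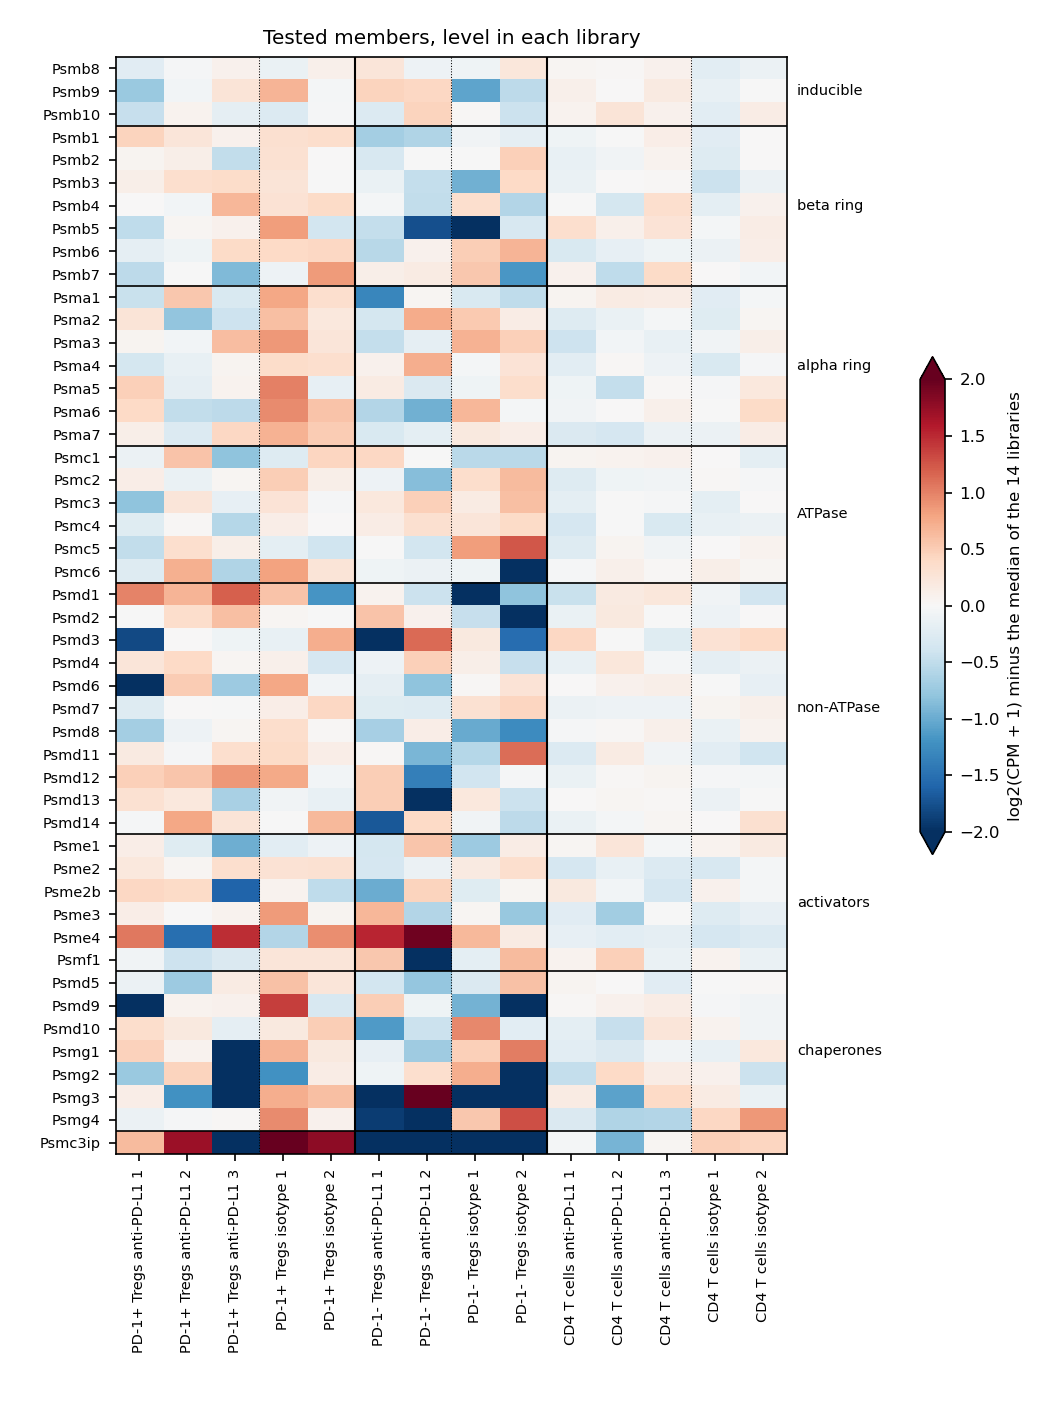
Level of each of the 48 tested members (rows, grouped by role) in each of the 14 libraries (columns, anti-PD-L1 left of isotype within each population), as log2(CPM + 1) minus the gene's median over libraries, with colours ending at 2 on either side. The CD4 libraries are pale in nearly all rows and the PD-1- Treg libraries hold most of the deep colours; Psmc3ip is lowest in the PD-1- Treg libraries and PD-1+ anti-PD-L1 replicate 3.

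To compare genes with each other, the authors' RPKM values (reads scaled to transcript length and to the mapped total) were used, since CPM rises with transcript length. On that scale the inducible catalytic subunit Psmb8 had the highest mean of all 50 symbols in each population, with 786 ± 96.8 RPKM for PD-1+ Tregs (SD, n = 5), 882 ± 156 for PD-1- Tregs (n = 4) and 836 ± 69.6 for CD4 T cells (n = 5). Psme2, the beta chain of PA28, was next in each population, at 720.5 ± 65.6, 644 ± 82.1 and 557 ± 46.7 RPKM in the same order. Its partner Psme1 stood lower, with 224 ± 60.5, 271 ± 108 and 301 ± 22.1 RPKM, again for PD-1+ Tregs, PD-1- Tregs and CD4 T cells. Psme3, the nuclear PA28 chain that interferon is not known to raise, was at 26.1 ± 8.29, 22.0 ± 12.0 and 19.3 ± 3.37 RPKM. The constitutive counterparts differed widely, with Psmb6 at 463 ± 98.9 RPKM in PD-1+ Tregs and Psmb5 at 49.6 ± 21.5.

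The inducible subunit made up most of the RNA in 2 of the 3 catalytic pairs, in all 14 libraries. Psmb8, which replaces Psmb5 at the chymotrypsin-like site, made up 94.1 ± 2.43% of the summed RPKM of the pair for PD-1+ Tregs (SD, n = 5), 97.5 ± 1.25% for PD-1- Tregs (n = 4) and 93.8 ± 0.362% for CD4 T cells (n = 5), and no library was below 89.9%. Psmb10, which replaces Psmb7 at the trypsin-like site, made up 72.2 ± 7.93%, 73.0 ± 7.84% and 74.1 ± 5.36% of its pair in the same order. Psmb9, which replaces Psmb6 at the caspase-like site, made up 37.5 ± 5.69%, 36.0 ± 18.6% and 42.4 ± 3.82%. These are shares of RNA, not of assembled proteasomes, and they rest on the lengths the authors used. They are given without a test, since the pairs were chosen with results of these data known. Psmb9 overlaps Tap1 on the opposite strand in the GENCODE annotation of the same build, Psmb8 overlaps the antisense gene Gm20496, Psmb10 the antisense gene Gm16156 and Psmb7 the gene Nek6. How strand was used in counting is not stated, so reads of these genes and their overlapping partners cannot be told apart where they overlap.

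**Figure D2:**
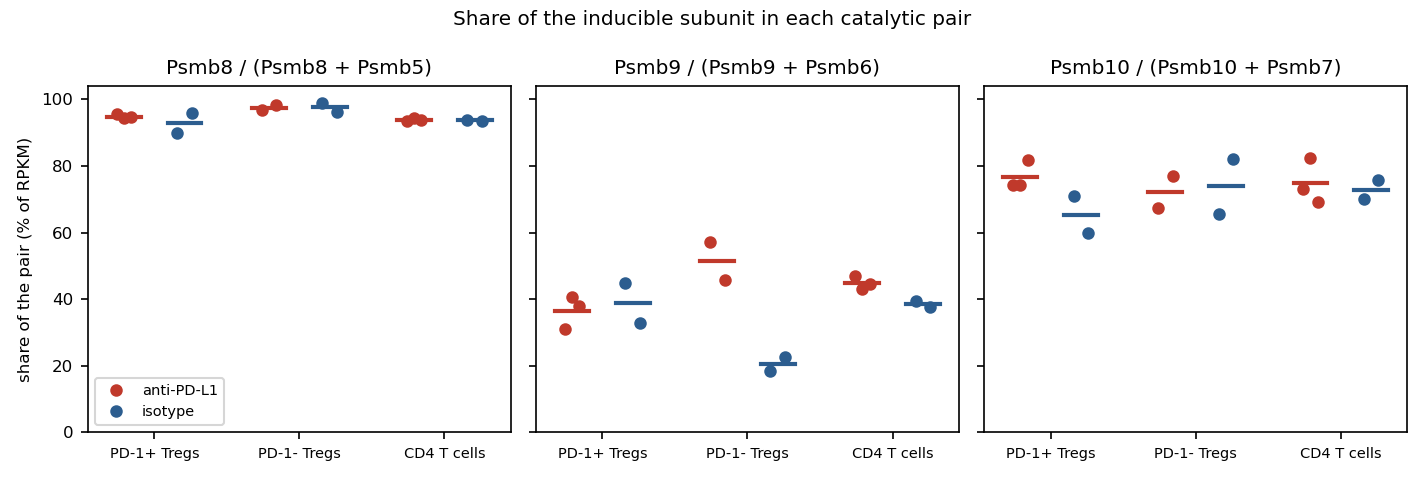
Share of the inducible subunit in the summed RPKM of each catalytic pair, in percent, by library (points) with the group mean (bar), anti-PD-L1 in red and isotype in blue. The Psmb8 share is above 89 in every library, and the Psmb9 share in PD-1- Tregs is 57.3 and 45.7 under anti-PD-L1 and 18.5 and 22.6 under isotype.

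How far the members varied between libraries differed by population. The median coefficient of variation of the 48 members' CPM was 26.3% over the 5 PD-1+ Treg libraries, 42.5% over the 4 PD-1- Treg libraries and 10.6% over the 5 CD4 libraries. All tested genes with any count there had medians of 75.8%, 105.8% and 33.7%, and the genes at or above the members' own median level had 25.4%, 36.7% and 14.7%. The levels of the 2 sets differ, with medians of 232, 193 and 207 CPM for the members and 365, 315 and 342 CPM for those genes. The 5 inducible genes had medians of 14.6%, 28.2% and 8.53%, and the 31 constitutive core and cap subunits 24.6%, 36.8% and 9.74%.

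Anti-PD-L1 was set against isotype in each population by itself, and PD-1+ Tregs (3 anti-PD-L1 and 2 isotype libraries) are given first. No member passed the threshold, an adjusted p below 0.05 by edgeR's quasi-likelihood test over all 13434 genes tested, where 0.0149% of all genes did. At an unadjusted p below 0.05 there were 2 members, both lower, against 8.06% of all genes, and DESeq2 also called none, against 4.62%. The members' log2 changes were below 0 for 38 of 48, with a median of -0.33, while 48% of all genes were above 0 and their median was 0; without the Y-linked library it was -0.35, with 36 below 0. Of the 7 alpha subunits tested, which form the outer rings, all 7 were below 0 with a median of -0.50, and so were all 7 assembly chaperones, with a median of -0.63.

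Psma7, an alpha subunit, stood at 615, 472 and 757 CPM in anti-PD-L1 PD-1+ Tregs and 929 and 808 in isotype PD-1+ Tregs. Every anti-PD-L1 library was below both isotype libraries, a log2 change of -0.50 ± 0.20 (SE) with an adjusted p of 0.596 (edgeR). Psma6, another alpha subunit, stood at 204, 110.1 and 107 CPM under anti-PD-L1 and 300.1 and 231 under isotype, likewise without overlap (-0.92 ± 0.36, edgeR adjusted p = 0.596). These 2 are the members at an unadjusted p below 0.05 and were named after their values were seen. Over all members, 10 had every anti-PD-L1 library below every isotype library, against 11.5% of all genes, and 1 had the reverse, against 7.69%.

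Summed over the 49 members, anti-PD-L1 PD-1+ Tregs gave 1.08%, 1.16% and 1.11% of all counts and isotype PD-1+ Tregs 1.50% and 1.35%, so that the groups did not overlap. The share of Actb, a single abundant gene, moved the other way, at 6.47%, 5.88% and 7.27% under anti-PD-L1 and 4.26% and 3.60% under isotype. Macrophage and monocyte markers summed to 3952 to 5001 CPM under anti-PD-L1 and 5186 to 7770 under isotype, and 5 B cell markers to 22.9 to 82.2 and 189 to 364 CPM, with Ms4a1 at 0 in the anti-PD-L1 libraries. All 6 Treg markers together came to 4517 to 5577 CPM under anti-PD-L1 and 3090.0 to 4167 under isotype. Genes detected numbered 9662 to 10884 under anti-PD-L1 and 10893 to 11312 under isotype, and Rn45s, the ribosomal RNA precursor, took 0.0816% to 0.146% of counts under anti-PD-L1 and 0.209% to 0.255% under isotype. The part of these in the members' shares was not tested. In PD-1- Tregs the members' share was 1.14% and 1.22% under anti-PD-L1 and 1.21% and 1.23% under isotype. In CD4 T cells it was 1.07%, 1.11% and 1.13% under anti-PD-L1 and 1.12% and 1.20% under isotype, and these groups overlapped.

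**Figure D3:**
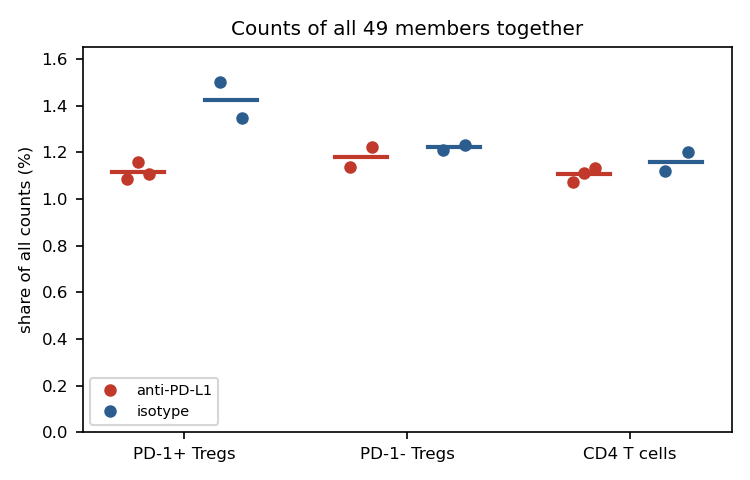
Counts of all 49 members together as a percentage of all counts, by library (points) with the group mean (bar), anti-PD-L1 in red and isotype in blue. In PD-1+ Tregs the 3 anti-PD-L1 libraries sit between 1.08 and 1.16 and the 2 isotype libraries at 1.50 and 1.35; the 2 other populations overlap.

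None of the immunoproteasome genes passed the threshold in PD-1+ Tregs. Psmb8 stood at 999, 1159 and 1241 CPM under anti-PD-L1 and 1078 and 1266 under isotype, with overlap, and its log2 change was -0.05 ± 0.17 with a 95% interval of -0.41 to 0.31. Psmb9 stood at 153, 247 and 309 CPM under anti-PD-L1 and 413 and 249 under isotype (-0.49 ± 0.31, interval -1.17 to 0.19). The log2 change was -0.03 ± 0.27 for Psmb10 (interval -0.61 to 0.55), -0.13 ± 0.36 for Psme1 (-0.92 to 0.66) and -0.10 ± 0.17 for Psme2 (-0.46 to 0.27), none past the threshold. Of their counterparts, Psmb5 had a log2 change of -0.47 ± 0.90, Psmb6 -0.34 ± 0.23, Psmb7 -0.88 ± 0.53 and Psme3 -0.44 ± 0.59. The intervals of Psmb5 (-2.41 to 1.48) and Psmb7 (-2.04 to 0.27) are wide. That of Psmb5 holds large changes in either direction, and that of Psmb7 holds a large fall.

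The other extremes of PD-1+ Tregs were genes with wide spread. Psmd1, a scaffold subunit of the cap, stood at 311, 251 and 359 CPM under anti-PD-L1 and 233 and 68.5 under isotype, all 3 above both, a log2 change of 1.02 ± 0.90. Psme4, the activator PA200, had a log2 change of 0.44 ± 0.91 and Psmd4, the ubiquitin receptor Rpn10, one of 0.33 ± 0.26. Lowest were the assembly chaperones Psmg3 (-1.69 ± 2.30) and Psmd9 (-1.29 ± 1.62) and Psmc3ip (-1.21 ± 1.51), each with a library at or near 0 CPM. None passed the threshold.

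PD-1- Tregs (2 anti-PD-L1 and 2 isotype libraries) gave the largest single values. No member passed the adjusted threshold of edgeR, where 2.66% of all genes did. At an unadjusted p below 0.05 there were 15 of 48 members, 5 higher and 10 lower, against 20.1% of all genes, and DESeq2 called 14, against 20.5%. The median log2 change was -0.05, with 26 below 0 and 22 above, where 41.6% of all genes were above 0, and became 0.01 with edgeR's RLE scaling. Without overlap between groups were 8 members that were higher, against 12.5% of all genes, and 15 that were lower, against 14%.

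Psmb9 was the inducible gene that lay highest. It had 349 and 342 CPM in anti-PD-L1 PD-1- Tregs and 123 and 179 in isotype PD-1- Tregs, from 4725 and 4064 counts against 1322 and 1974. Both anti-PD-L1 libraries were above both isotype libraries, a log2 change of 1.20 ± 0.35 with a 95% interval of 0.43 to 1.96, an unadjusted p of 0.00504 and an adjusted p of 0.0945 (edgeR), so it missed the threshold. It passed under DESeq2 (adjusted p = 0.00421) and in both fits of log2 RPKM by limma (0.0383 and 0.0347), and its adjusted p ranged from 0.00421 to 0.899 over 14 alternatives. Without the anti-PD-L1 library that held Y-linked counts it was 1.19. Reads of Tap1, which overlaps it, did not separate the groups, at 473 and 248 CPM under anti-PD-L1 and 209.8 and 315 under isotype.

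Its counterpart Psmb6 lay the other way, at 336 and 524 CPM under anti-PD-L1 and 699 and 790.3 under isotype, without overlap (-0.79 ± 0.25, interval -1.35 to -0.24, edgeR adjusted p = 0.118, past the threshold in 4 of 14 alternatives). The Psmb9 share of the pair was accordingly 57.3% and 45.7% of RPKM under anti-PD-L1 and 18.5% and 22.6% under isotype. The difference was 31.0 ± 6.16 percentage points (pooled SD within the groups), given without a test. The corresponding difference was -2.35 ± 6.41 points in PD-1+ Tregs, where the groups overlapped, and 6.33 ± 1.84 points in CD4 T cells, from 47.1%, 43.1% and 44.6% under anti-PD-L1 and 39.6% and 37.6% under isotype, without overlap. Of the other pairs, the Psmb10 share in PD-1+ Tregs was 74.1%, 74.4% and 81.7% under anti-PD-L1 and 70.9% and 59.9% under isotype. These did not overlap, a difference of 11.4 ± 5.69 points, also given without a test. Elsewhere the Psmb10 share overlapped between arms, with differences of -1.78 ± 9.52 points (PD-1- Tregs) and 2.00 ± 6.06 points (CD4 T cells). The Psmb8 share overlapped between arms in every population. Whether the treatment changed Psmb9 differently in PD-1+ and PD-1- Tregs was tested directly. The difference of the changes was -1.68 ± 0.47 on the log2 scale, with an adjusted p of 0.105 (edgeR), and no member passed in that comparison, where 1.46% of all genes did. At an unadjusted p below 0.05 there were 5 members, against 16.4%, and DESeq2 called 5, with Psmb9 among them, against 16.1%.

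**Figure D4:**
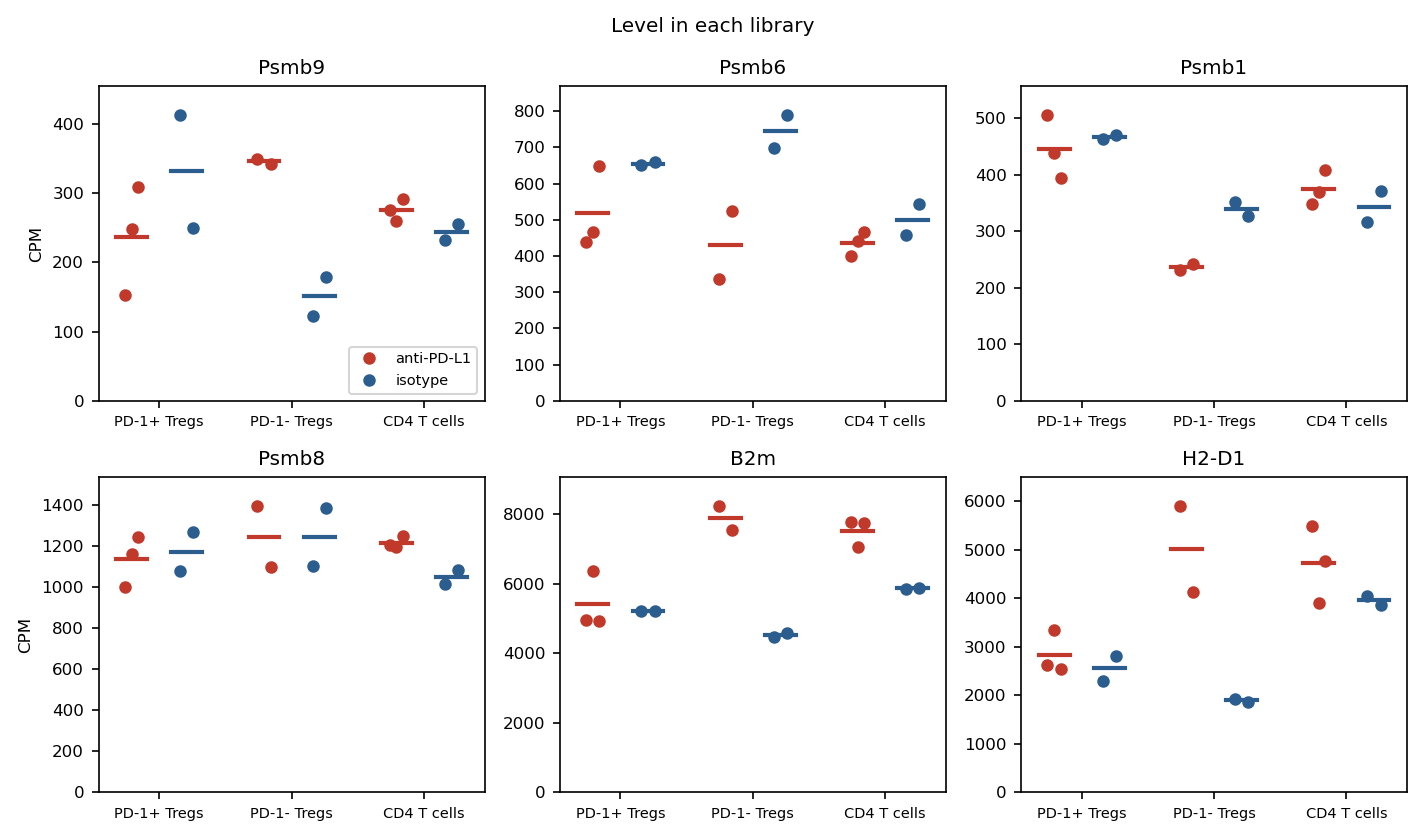
CPM in each library (points) with the group mean (bar), anti-PD-L1 in red and isotype in blue, for Psmb9, Psmb6, Psmb1, Psmb8, B2m and H2-D1. In PD-1- Tregs Psmb9 is 349 and 342 under anti-PD-L1 and 123 and 179 under isotype, Psmb6 lies the other way, and Psmb8 overlaps in PD-1+ and PD-1- Tregs.

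The other 4 inducible genes had smaller changes in PD-1- Tregs than Psmb9, or lay below 0. Psmb8 stood at 1393 and 1096 CPM in anti-PD-L1 PD-1- Tregs and 1103 and 1382 in isotype PD-1- Tregs, with a log2 change of 0.00 ± 0.18 and an interval of -0.39 to 0.40. Psmb10 had a log2 change of 0.32 ± 0.29, and of -0.12 without replicate 2 of the anti-PD-L1 group, which carried Y-linked counts, so its direction rests on that library. That of Psme1 was 0.40 ± 0.40, with overlap, and -0.15 without the same library. Psme2 stood at 508 and 587 CPM under anti-PD-L1 and 723 and 806 under isotype, without overlap and lower (-0.48 ± 0.19, edgeR adjusted p = 0.182), and its reads may be shared with the near-identical copy Psme2b. Psmb5 (0.02 ± 0.99), Psmb7 (0.23 ± 0.59) and Psme3 (0.47 ± 0.66) were not told apart from 0.

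Among cap subunits, the ATPase Psmc5 came nearest to the threshold in PD-1- Tregs. It stood at 262 and 205 CPM under anti-PD-L1 and 468 and 622 under isotype, without overlap, a log2 change of -1.22 ± 0.30 with an adjusted p of 0.0505 (edgeR), past the threshold in 4 of 14 alternatives. Psmd10, the chaperone gankyrin, stood at 60.1 and 98.5 CPM under anti-PD-L1 and 260.3 and 114 under isotype (-1.24 ± 0.46, edgeR adjusted p = 0.17), and its log2 change was -0.53 without isotype replicate 1 and -1.71 without isotype replicate 2, where it passed (edgeR adjusted p = 0.0391). Psmg4, which helps to build the alpha ring, had 90 and 0 counts under anti-PD-L1 and 438 and 765 under isotype (edgeR adjusted p = 0.241). Its partner Psmg3 had 0 and 1098 counts under anti-PD-L1 and 0 and 0 under isotype, so that the value rests on 1 library, which also held Y-linked counts, and no fold is given. Psmd1 (1.60 ± 0.98) and Psmd9 (1.99 ± 1.87) were the next highest. Psmd1 had 3.17 CPM in isotype replicate 1 and 88.9 in isotype replicate 2, and its log2 change was 0.64 without replicate 1 and 5.46 without replicate 2, where it passed (edgeR adjusted p = 0.0038).

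Library measures moved with treatment in PD-1- Tregs too. Actb took 3.16% and 2.74% of counts under anti-PD-L1 and 6.53% and 8.71% under isotype. Rn45s took 0.318% and 0.368% under anti-PD-L1 and 0.213% and 0.130% under isotype. Both moved in the opposite direction to PD-1+ Tregs. The list of dendritic cell and class II genes came to 8879 and 10961 CPM under anti-PD-L1 and 14366 and 15529 under isotype, with Xcr1 and Zbtb46 at 0 in all 4 libraries. Their part in the values above was not tested.

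In CD4 T cells (3 anti-PD-L1 and 2 isotype libraries) the members' log2 changes were small. No member passed the threshold of edgeR, where 0.00744% of all genes did, none had an unadjusted p below 0.05, against 1.15% of all genes, and DESeq2 called none, against 0.402%. Of 48 members, 25 were above 0 and 23 below (48.9% of all genes were above), with a median of 0.02, and 47 lay within 1 log2 unit. Psmb8 stood at 1204, 1192 and 1248 CPM under anti-PD-L1 and 1012 and 1082 under isotype, without overlap, yet with a log2 change of 0.21 ± 0.17 (interval -0.15 to 0.58). Psmb9 stood at 275, 260.0 and 292 CPM and 232 and 255, also without overlap (0.18 ± 0.32, interval -0.51 to 0.87). They were 2 of 8 members with every anti-PD-L1 library above every isotype library, against 12.5% of all genes, and 5 had the reverse, against 15.5%.

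The log2 changes of the remaining inducible genes of CD4 T cells were 0.17 ± 0.27 (Psmb10), -0.04 ± 0.36 (Psme1) and -0.07 ± 0.17 (Psme2), and those of the counterparts 0.18 ± 0.91 (Psmb5), -0.20 ± 0.23 (Psmb6), 0.05 ± 0.54 (Psmb7) and -0.08 ± 0.60 (Psme3). The highest 3 members were Psmd11 (0.26), a cap subunit, Psma1 (0.26), an alpha subunit, and Psmd1 (0.24). The lowest were Psmg4 (-1.17), Psmc3ip (-0.75) and Psma7 (-0.28). The standard errors of CD4 T cells come from the spread that all 14 libraries share in the fit, so they are wider than the CD4 libraries alone would give. Those of PD-1- Tregs, whose members varied most (median coefficient of variation 42.5% against 10.6% in CD4 T cells), may be narrower than their own libraries would give. Their p-values may then be too small. Marker sums that did not overlap between the CD4 arms were those of 6 Treg markers (1374 to 2081 CPM under anti-PD-L1 and 589 to 620.1 under isotype), 7 T cell markers (7112 to 7621 and 6415 to 6662), 5 B cell markers (45.0 to 83.0 and 174 to 200.1) and 12 mesothelial and stromal markers (265 to 791 and 1112 to 1477), none of them with a marker at 0 throughout. Their part in the members' values was not tested.

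**Figure D5:**
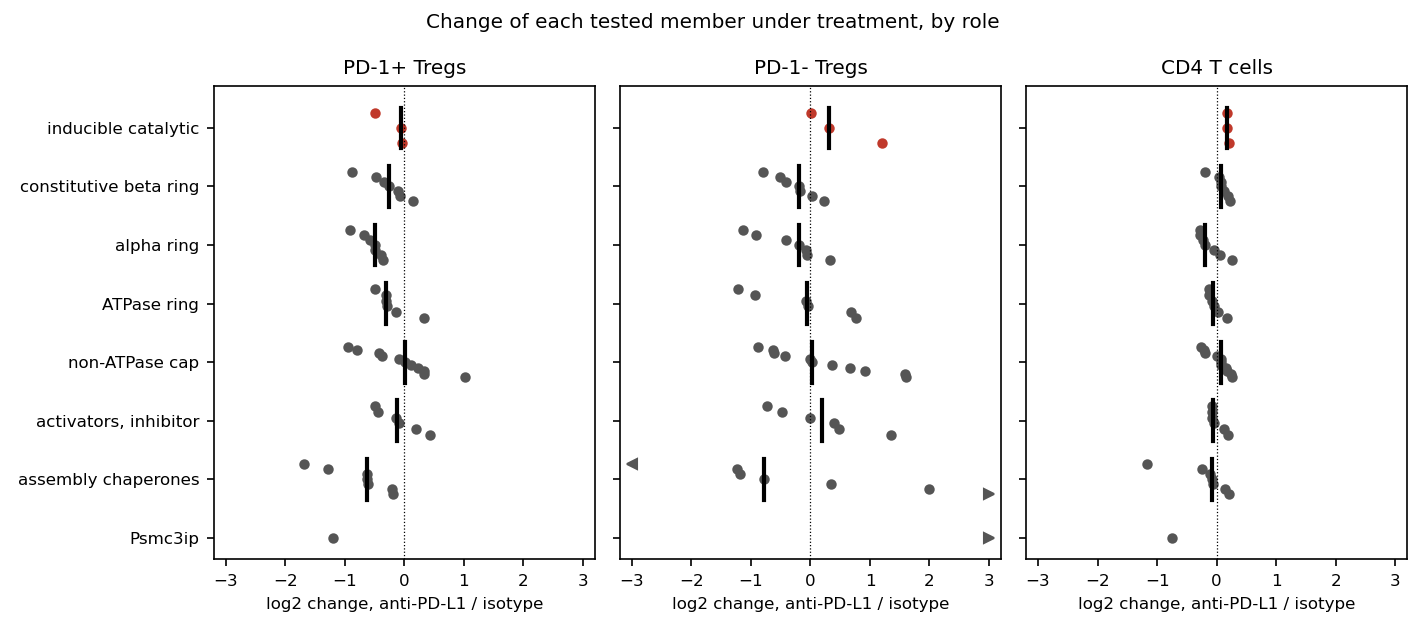
Log2 change under anti-PD-L1 against isotype of each tested member (points), in rows by role, with the row's median (vertical bar), for the 3 populations. Changes beyond 3 are drawn as arrowheads at the edge; the inducible catalytic subunits are in red. All 7 alpha subunits and all 7 assembly chaperones lie below 0 in PD-1+ Tregs, and the CD4 T cell points lie nearest to 0.

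Averaged over the 3 populations, no member passed the threshold of edgeR (1.23% of all genes did), 9 had an unadjusted p below 0.05, against 14.8% of all genes, and DESeq2 called 8, against 14.1%. The changes of PD-1+ Tregs and of PD-1- Tregs were each also tested against that of CD4 T cells. No member passed in either test of edgeR, where 0% and 0.975% of all genes did, while 0 and 5 members had an unadjusted p below 0.05, against 3.5% and 14.3% of all genes. DESeq2 called 0 and 2, against 2.02% and 13.4%. Taken per library as the mean log2(CPM + 1) of the 5 inducible genes minus that of the 31 constitutive core and cap subunits, this score was 0.98 ± 0.09 in anti-PD-L1 PD-1+ Tregs (SD, n = 3) and 0.88 ± 0.15 in isotype PD-1+ Tregs (n = 2). It was 1.47 ± 0.26 and 1.08 ± 0.20 in anti-PD-L1 and isotype PD-1- Tregs (n = 2 each), and 1.14 ± 0.07 (n = 3) and 1.04 ± 0.06 (n = 2) in anti-PD-L1 and isotype CD4 T cells. The libraries ran from 1.28 to 1.65 under anti-PD-L1 and 0.94 to 1.22 under isotype in PD-1- Tregs, without overlap, while those of PD-1+ Tregs (0.89 to 1.07 and 0.77 to 0.98) and CD4 T cells (1.06 to 1.18 and 1.00 to 1.08) overlapped. No test was made of these differences. In PD-1- Tregs the library at 1.65, anti-PD-L1 replicate 2, also held Y-linked counts, and the other anti-PD-L1 library scored 1.28. Constitutive subunits near 0 raise the score, such as Psmd13 (2.86 CPM) in anti-PD-L1 replicate 2 and Psmd1 (3.17 CPM) in isotype replicate 1.

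The populations were compared next, each as the mean of its anti-PD-L1 and isotype groups. PD-1+ Tregs exceeded PD-1- Tregs in 2 members by edgeR's adjusted p, Psmb1 and Psmc3ip, where 4.28% of all genes were called in either direction and 3.8% as higher, so the share of members called was near the background. At an unadjusted p below 0.05 there were 8 members, against 22.3%, and DESeq2 called 6, against 22.2%. The members' median log2 difference was 0.23, with 34 of 48 above 0 against 62.2% of all genes, while the median of all genes was 0.42. Genes detected numbered 9662 to 11312 in PD-1+ and 8027 to 8801 in PD-1- Treg libraries, and 10 dendritic cell and class II genes came to 19854 to 49669 and 8879 to 15529 CPM; the part of these in the calls was not tested.

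Psmb1, a non-catalytic beta subunit on chromosome 17 (15475721 to 15498276, minus strand), stood at 506, 438 and 394 CPM in anti-PD-L1 and 464 and 471 in isotype PD-1+ Tregs. In PD-1- Tregs it stood at 232 and 243 CPM under anti-PD-L1 and 351 and 328 under isotype, so every PD-1+ library was above every PD-1- library. The means were 454 ± 41.9 CPM in PD-1+ Tregs (SD, n = 5) and 288 ± 60.0 in PD-1- Tregs (n = 4), a log2 difference of 0.68 ± 0.14 with an interval of 0.37 to 1.00 and an adjusted p of 0.0206 (edgeR). It was past the threshold in 14 of 20 alternatives, with adjusted p-values from 3.02e-06 to 0.259, and lost it without isotype PD-1+ replicate 1 (0.69) or replicate 2 (0.68). Without the libraries that held Y-linked counts the difference was 0.75 (edgeR adjusted p = 0.0368), and with only the Treg libraries in the fit it was 0.69 and missed the threshold (edgeR adjusted p = 0.259). Psmb1 also missed the threshold when the replicate number, from the title or the brackets, was added to the fit as a block. No gene of the annotation overlaps it. It was the only member whose libraries were all higher in PD-1+ Tregs, against 3.24% of all genes. The ATPase Psmc4 alone had the reverse, with 375 ± 68.0 CPM for PD-1+ Tregs and 490.4 ± 34.4 for PD-1- Tregs, against 0.782% of all genes, and missed the threshold (edgeR adjusted p = 0.197); it was named after its values were seen.

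Psmc3ip lies on chromosome 11 from 101092141 to 101095435, minus strand, and overlaps Mlx on the opposite strand. Its counts were 254, 604 and 8 in anti-PD-L1 and 678 and 634 in isotype PD-1+ Tregs, and 24 and 29 in anti-PD-L1 and 1 and 0 in isotype PD-1- Tregs. The library with 8 counts, the PD-1+ one with Y-linked reads, lay below both anti-PD-L1 PD-1- libraries. The mean was 35.5 ± 23.6 CPM in PD-1+ Tregs (SD, n = 5) and 1.08 ± 1.22 in PD-1- Tregs (n = 4), with an adjusted p of 0.0308 (edgeR), past the threshold in 11 of 20 alternatives. The fitted log2 difference, 6.68 ± 1.53, depends on the prior count, since 1 group held a single count, and was 7.10 without the libraries with Y-linked counts (edgeR adjusted p = 0.0364). The call was lost, with fitted differences of 6.16 to 6.81, when isotype PD-1+ replicate 1 or 2, anti-PD-L1 PD-1+ replicate 2, isotype PD-1- replicate 2 or anti-PD-L1 PD-1- replicate 2 was left out, and with only the Treg libraries in the fit (edgeR adjusted p = 0.294). Mlx stood at 27.5, 152, 45.3, 68.4 and 19.97 CPM in PD-1+ Tregs and 66.7, 93.5, 12.7 and 0 in PD-1- Tregs, with overlap. The 2 isotype PD-1- libraries were the lowest of all 14 for both genes. Whether the 2 genes share reads was not tested. With such a replicate block in the fit, Psmc3ip also missed the threshold. Psmc3ip was at 14.5 ± 5.12 CPM in CD4 T cells (n = 5).

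No immunoproteasome gene passed the threshold between the Treg types. Between PD-1+ and PD-1- Tregs the log2 differences were -0.11 ± 0.12 for Psmb8, 0.29 ± 0.23 for Psmb9, -0.13 ± 0.20 for Psmb10, -0.20 ± 0.27 for Psme1 and 0.23 ± 0.13 for Psme2, and the interval of Psmb8 ran from -0.38 to 0.16. Those of the counterparts were 1.15 ± 0.69 for Psmb5, 0.04 ± 0.17 for Psmb6, -0.03 ± 0.40 for Psmb7 and 0.36 ± 0.45 for Psme3. Psmd1 (1.43 ± 0.67) was the highest member after Psmc3ip and Psmg3, which had 3 of 4 PD-1- libraries at 0 counts. Psmc5 (-0.57 ± 0.20, edgeR adjusted p = 0.116), Psme4 (-0.51 ± 0.66) and Psmg2, an assembly chaperone (-0.44 ± 0.96, and 1.40 without isotype PD-1- replicate 1), were the lowest.

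Between PD-1+ Tregs and CD4 T cells no member passed the threshold of edgeR, where 0.35% of all genes did, 4 had an unadjusted p below 0.05, against 12.4%, and DESeq2 called 3, against 5.52%. The members' median was 0.19, with 36 of 48 above 0 against 39.3% of all genes, and the median of all genes was -0.23. Psme2 came nearest among the inducible genes, with 755 ± 58.6 CPM for PD-1+ Tregs and 549 ± 47.9 for CD4 T cells (SD, n = 5 each), without overlap, a log2 difference of 0.46 ± 0.12 (interval 0.20 to 0.72, edgeR adjusted p = 0.187). Psme2 and Psme3 were the 2 members without overlap that were higher, against 1.71% of all genes, and none was lower without overlap, against 4.72%. The other 4 inducible genes lay between -0.33 (Psme1) and 0.11 (Psmb9). The log2 differences of the counterparts were -0.03 ± 0.64 (Psmb5), 0.32 ± 0.16 (Psmb6), 0.00 ± 0.38 (Psmb7) and 0.54 ± 0.42 (Psme3). The highest members were Psmc3ip (1.26), Psme4 (0.85) and Psmd1 (0.56), and the lowest Psmg2 (-0.43), Psme1 and Psmd3, a cap subunit (-0.26).

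Between PD-1- Tregs and CD4 T cells no member passed the threshold of edgeR, where 3.6% of all genes did, 6 had an unadjusted p below 0.05, against 28.6%, and DESeq2 called 9, against 23.3%. The members' median was -0.09, or 0.00 with RLE scaling, and that of all genes -0.94, or -0.85 with RLE scaling, with 21 of 48 members and 27.1% of all genes above 0. Psmb5 had 23.6 ± 14.6 CPM for PD-1- Tregs (n = 4) and 54.3 ± 5.62 for CD4 T cells (n = 5), without overlap (-1.18 ± 0.69, edgeR adjusted p = 0.287). Psme4 lay the other way, at 79.4 ± 42.7 and 28.1 ± 1.47 CPM (1.36 ± 0.67, edgeR adjusted p = 0.203), and was above all CD4 libraries in each PD-1- library. With Psmc3 and Psmc4 it made 3 members higher without overlap, against 1.01% of all genes, and Psmb5, Psmc6 and Psmc3ip were lower without overlap, against 13%. The log2 differences of the inducible genes were 0.14 ± 0.12 (Psmb8), -0.18 ± 0.23 (Psmb9), -0.09 ± 0.20 (Psmb10), -0.13 ± 0.27 (Psme1) and 0.23 ± 0.13 (Psme2). These 3 population comparisons share their libraries pairwise and are not independent of one another.

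Partners of the proteasome were counted from a list of 27 genes of assembly, ubiquitin supply and regulation, of which 24 were tested. None passed the threshold in any of the 10 comparisons of edgeR. Pomp, the chaperone that brings the beta ring together, stood at 259 and 372 CPM in anti-PD-L1 PD-1- Tregs and 669 and 559 in isotype PD-1- Tregs, without overlap (-0.96 ± 0.25, edgeR adjusted p = 0.0635). In PD-1+ Tregs it stood at 554, 535 and 518 CPM under anti-PD-L1 and 697 and 511 under isotype (-0.17 ± 0.22), and in CD4 T cells its log2 change was 0.23 ± 0.23. Nfe2l1, the factor that raises subunit transcription when proteasomes are inhibited, was at or near 0 in 2 of 5 PD-1+ and 2 of 4 PD-1- Treg libraries and at 25.2 to 55.0 CPM in CD4 T cells, and the standard errors of its log2 changes (-2.07 ± 2.50, 0.60 ± 2.76 and 0.44 ± 2.54 in PD-1+ Tregs, PD-1- Tregs and CD4 T cells) exceeded the changes themselves.

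Of 23 genes of interferon-gamma signalling and class I presentation, all tested, Ifngr1, the chain of the receptor that binds interferon-gamma, rose in each population under anti-PD-L1. Its log2 change was 1.93 ± 0.21 for PD-1+ Tregs (edgeR adjusted p = 0.00564), 2.01 ± 0.22 for PD-1- Tregs (0.00119) and 2.09 ± 0.21 for CD4 T cells (0.00386). No other gene of the list passed for PD-1+ Tregs or for CD4 T cells. In PD-1- Tregs 3 rose, against 1.38% of all genes, and none fell, against 1.29%. H2-D1, a class I heavy chain, stood at 5897 and 4123 CPM under anti-PD-L1 and 1925 and 1863 under isotype (1.40 ± 0.21, edgeR adjusted p = 0.00528), and B2m, its light chain, at 8227 and 7545 under anti-PD-L1 and 4458 and 4592 under isotype (0.80 ± 0.13, edgeR adjusted p = 0.00885). H2-D1 shares much of its sequence with other class I genes, so its counts are uncertain. Without the library that held Y-linked counts in each population, Ifngr1 was at 1.76 in PD-1+ Tregs and missed the threshold there (edgeR adjusted p = 0.056), while Ifngr1, H2-D1 and B2m in PD-1- Tregs (1.71, 1.61 and 0.84) and Ifngr1 in CD4 T cells (2.05) stayed past it. Ifngr1 also missed it without isotype replicate 1 or 2 in PD-1+ Tregs (2.00 and 1.87) and in CD4 T cells (2.11 and 2.03). Limma-voom called none of these 5 within a population (adjusted p-values from 0.149 to 1.00), and with only the compared libraries H2-D1 (0.0614) and B2m (0.223) in PD-1- Tregs and Ifngr1 (0.448) in PD-1+ Tregs missed the threshold by edgeR. Averaged over the populations, Ifngr1, B2m and H2-D1 passed by edgeR, with log2 changes of 2.01 ± 0.12, 0.40 ± 0.07 and 0.60 ± 0.11; the calls of B2m (0.37 to 0.40) and H2-D1 (0.56 to 0.65) were lost when either isotype PD-1+ or CD4 library, or anti-PD-L1 CD4 replicate 1 or 3, was left out. The transcription factors Irf1 and Nlrc5, which act on class I genes, did not pass. Their log2 changes were 0.93 ± 0.49 and -0.13 ± 0.52 for PD-1+ Tregs, 0.43 ± 0.52 and -0.17 ± 0.57 for PD-1- Tregs, and -0.55 ± 0.47 and -0.07 ± 0.52 for CD4 T cells.

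Between populations, Tapbp, which tethers class I molecules to the peptide transporter, was lower in PD-1+ Tregs, at 588 ± 121 CPM, than in PD-1- Tregs, at 864 ± 242 (-0.58 ± 0.14, edgeR adjusted p = 0.0381), and than in CD4 T cells, at 950.0 ± 72.5 (-0.74 ± 0.13, edgeR adjusted p = 0.0333). Jak1, a kinase of the interferon receptors, was lower in PD-1+ Tregs, at 310.1 ± 78.4 CPM, than in CD4 T cells, at 594 ± 64.9 (-1.02 ± 0.17, edgeR adjusted p = 0.0263). Tapbp was past the threshold in 9 of 20 alternatives against PD-1- Tregs and 10 of 21 against CD4 T cells, and Jak1 in 11 of 21. No gene of the list passed between PD-1- Tregs and CD4 T cells by edgeR, where 3.6% of all genes did. Of its 23 genes, 6 had an unadjusted p below 0.05, against 28.6% of all genes. Tapbp and Jak1 missed the threshold without the libraries with Y-linked counts (-0.48 and -0.72 for Tapbp, -0.98 for Jak1). Leaving out 1 library ended the call of Tapbp against PD-1- Tregs in 5 of 9 cases (isotype PD-1+ replicate 1, anti-PD-L1 PD-1+ replicates 1 and 3, and PD-1- replicate 2 of both arms), with differences of -0.55 to -0.47. Against CD4 T cells the calls were lost without either isotype CD4 library, anti-PD-L1 CD4 replicates 1 and 3, isotype PD-1+ replicate 1 or anti-PD-L1 PD-1+ replicate 3, for Tapbp also without anti-PD-L1 PD-1+ replicate 1 (-0.77 to -0.64) and for Jak1 also without isotype PD-1+ replicate 2 (-1.15 to -0.91). Psmb8 and Psmb9, which neighbour the transporter genes on chromosome 17, did not pass in these comparisons.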

How the data were processed

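Members, lists and tests were chosen with earlier results of these data known. Per the labels and file headers, the authors deposited raw read counts and RPKM values for 25124 genes in 14 libraries. Per the submitters' processing notes, the tools were HISAT2 2.0.4, SAMtools, HOMER 3.12 and DESeq2, with build mm10. Annotation, counting settings and strand use were not given in the sources used here.

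The deposited counts were tested with edgeR 4.0.16 (R 4.3.3). Its filterByExpr at a minimum count of 10 left 13434 genes, followed by TMM scaling and 1 robust quasi-likelihood fit of 6 group means. The code was tried on counts simulated with a much smaller spread than these data. That trial does not show which changes are detectable here. P-values were adjusted by Benjamini-Hochberg over all genes, with a threshold of 0.05. The biological coefficient of variation was 1.22. SE is the log2 change over the square root of F, and intervals are 95%. Levels are CPM. Population comparisons average the log2 means of both arms. The authors' RPKM values served to compare genes and, as log2(RPKM + 1) or (RPKM + 0.1) in limma 3.58.1, as alternatives, with DESeq2 1.42.0, limma-voom, other scaling, other filters and left-out libraries.

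Named were the inducible genes and their counterparts, members past the threshold, the 3 highest and 3 lowest members per comparison (10 CPM or more in the higher arm), pathway genes past the threshold, and Pomp, Nfe2l1, Irf1 and Nlrc5; 1 further gene of the rule is not reported here. Where fewer than 3 are given, the others were already named or did not qualify. All 50 symbols matched the RefSeq table (GRCm38.p6). Amplified reads are not independent molecules.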

Additional observations from a re-analysis of the deposited data

Results flagged for a closer look

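H2-D1, the class I heavy chain of the interferon-gamma and class I list, differed in its response to anti-PD-L1 between the Treg types. Its log2 change was 0.15 ± 0.19 for PD-1+ Tregs and 1.40 ± 0.21 for PD-1- Tregs, a difference of -1.26 ± 0.28 by the interaction term (edgeR adjusted p = 0.0481). It was past the threshold in 8 of 18 alternatives, with adjusted p-values from 0.000554 to 0.877, and lay between -1.54 and -1.01 in all of them. Psmb9 had an interaction of -1.68 ± 0.47 in the same comparison and missed the threshold (edgeR adjusted p = 0.105).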

How the results depend on the processing

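For the number of members past the threshold, 3 comparisons gave 0 under every alternative run: treatment in PD-1+ Tregs, treatment in CD4 T cells, and the difference between those 2. For PD-1+ against PD-1- Tregs (2 by edgeR), it was 6 by DESeq2, 5 without the libraries with Y-linked counts, 0 with only the compared groups' libraries and 0 to 6 when 1 library was left out. For the others (0 by edgeR), DESeq2 gave 14 for treatment in PD-1- Tregs, 8 for the mean treatment change, 3 for PD-1+ Tregs and 9 for PD-1- Tregs against CD4 T cells, and 5 and 2 for the differences of treatment change between PD-1+ and PD-1- Tregs and between PD-1- Tregs and CD4 T cells. Limma-voom gave 3, 1, 1 and 3 for the first 4 of these. Log2 RPKM gave 2 for treatment in PD-1- Tregs with either pseudocount, 1 (pseudocount 1) and 2 (0.1) for PD-1- Tregs against CD4 T cells, and 1 (0.1) each for PD-1+ Tregs against CD4 T cells and the Treg difference. Without the Y-linked libraries, treatment in PD-1- Tregs, the mean change and PD-1- Tregs against CD4 T cells gave 1 each, and so did the last with only its own groups. With 1 library left out, the ranges were 1 to 7 for treatment in PD-1- Tregs, 0 to 4 for the mean, 0 to 3 for PD-1- Tregs against CD4 T cells, 0 to 6 for the Treg difference and 0 to 3 for PD-1- Tregs against CD4 T cells in treatment change. In a group of 2, the library that remains is assumed to vary like the others. The calls over all genes moved between fits too, as given below. Their share in each fit is given above for edgeR's main fit and DESeq2 only. The counts of members in the other fits are therefore not set against a background. The cause of these shifts was not tested.

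In their deviations from the group means, libraries with the same bracketed number correlated at 0.00203 to 0.0354. All were above 0 and under the 0.1 taken as the limit for pairing. Libraries with different numbers ran from -0.0333 to 0.0172, most of them below 0. Anti-PD-L1 CD4 replicate 2 correlated better with PD-1+ replicate 1 than with PD-1+ replicate 2. The 2 libraries of a group of 2 deviate by equal and opposite amounts, so these values cannot settle whether libraries are paired. The 3 libraries with Y-linked counts share the bracketed number 3, and the labels do not say what that number marks. With a replicate block by title number, by the number in brackets, or by the latter within treatment (added after seeing the data), PD-1+ against PD-1- Tregs gave 0 members, while H2-D1 and B2m in treated PD-1- Tregs stayed past the threshold under the first 2 of these blocks. The direction of 2 members in treated PD-1- Tregs turned without the Y-linked libraries, Psmb10 to -0.12 and Psmg3 to 0. With 1 library of that anti-PD-L1 group left out, Psmb10 ran from -0.12 to 0.63 and the fitted value of Psmg3, whose isotype libraries are at 0 counts, from 0 to 13.16, which is no fold. A change smaller than its SE in the main fit, and past the threshold in neither fit, was taken to have no direction. By this rule Psme1 in treated PD-1- Tregs (0.40, and -0.15 without anti-PD-L1 replicate 2) was not counted as turned. The Psmb8 share of its pair in PD-1+ Tregs differed by 1.84 points, and by -1.24 to 4.91 with an isotype library left out.

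Over 15 alternatives the members' median treatment change in PD-1+ Tregs ran from -0.48 to -0.17, with 35 to 41 below 0. Over all genes, the calls in PD-1- Tregs under treatment ran from 7 to 2760 (358 by edgeR) and those between the Treg types from 47 to 2976 (575). Psmg3, Psmg4 and Psmc3ip each had libraries at 0 counts.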
